A study of Mus musculus with 6 samples.

Results

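The receptors for interleukin-12 and interleukin-18 and the transcription factor STAT4 were examined in CD8 T cells that had or had not switched on Eomes in treated tumours. The genes were Il12rb1 and Il12rb2, which encode the chains of the IL-12 receptor, Il18r1 and Il18rap, which encode the chains of the IL-18 receptor, Il1rl1, which encodes the IL-33 receptor ST2, and Stat4. Every probe set that the platform annotation assigns to 1 of these 6 genes and to no other gene was taken, whatever its signal. Of the 6 genes, 5 stand among 18193 that have a probe set of their own on the array. They gave 6 of its 45037 probe sets other than controls: 1 each for Il12rb1, Il12rb2, Il18r1 and Stat4, and 2 for Il18rap. The annotation used here lists no single-gene probe set for Il1rl1, so ST2 was not analysed.

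The samples were 3 arrays of Eomes+ and 3 arrays of Eomes- CD8 T cells, both sorted from MCA-205 tumours grown in C57BL/6 Eomes-GFP mice. MCA-205 is a transplanted mouse fibrosarcoma, and the mice report Eomes expression by green fluorescence. Both fractions came from mice given 250 ug of anti-OX40 on days 12 and 16 and 200 ug of anti-CTLA-4 on days 12, 14 and 16 after implantation, and tumours were taken on day 19. Untreated mice were not analysed here. The labels give no age or sex of the mice and no gates of the sort. They do not say how many animals stand behind an array, so the p-values reflect only how far these arrays vary, which may be technical variation.

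IL-12 comes mainly from dendritic cells and macrophages. It binds a receptor of IL-12Rβ1, a chain shared with the IL-23 receptor, and IL-12Rβ2, the chain that docks STAT4; the kinases JAK2 and TYK2 phosphorylate STAT4, which then enters the nucleus and drives Ifng. IL-18, released by inflammasome-dependent cleavage, binds IL-18Rα (Il18r1), recruits IL-18Rβ (Il18rap) and signals through MYD88 and the IRAK kinases to NF-κB. T cells given both cytokines make far more interferon-γ than with either alone, and in CD8 T cells T-box factors and STAT4 act on several of the same effector genes.

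Promoter windows, from 250 bases before to 50 bases after the annotated start in RefSeq (GRCm38.p6), were present in the table used for 5 of the 6 genes, with 9 starts among them. They were searched on both strands for GGTGTGA, the core of the site that T-box factors bind, and for TTCNNNGAA, the gamma-activated site bound by STAT proteins. No window of the 5 genes held GGTGTGA (0 of 9), against 3.98% of 32851 mouse windows, and 2 of 9 held TTCNNNGAA, against 8.3% of all windows. Both windows with TTCNNNGAA are printed first, because they belong to a chain of each receptor, and the windows of Il18rap and of the first Stat4 start follow for comparison. Capitals mark TTCNNNGAA.
Il12rb2, chr6:67376139-67376438, minus strand: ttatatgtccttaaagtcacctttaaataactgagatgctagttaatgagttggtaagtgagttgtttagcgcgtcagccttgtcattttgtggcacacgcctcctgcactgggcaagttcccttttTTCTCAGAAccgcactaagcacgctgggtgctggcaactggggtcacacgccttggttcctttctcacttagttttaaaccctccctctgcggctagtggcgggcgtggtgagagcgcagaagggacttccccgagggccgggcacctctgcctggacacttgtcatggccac
Il18r1 (listed start 3), chr1:40465756-40466055, plus strand: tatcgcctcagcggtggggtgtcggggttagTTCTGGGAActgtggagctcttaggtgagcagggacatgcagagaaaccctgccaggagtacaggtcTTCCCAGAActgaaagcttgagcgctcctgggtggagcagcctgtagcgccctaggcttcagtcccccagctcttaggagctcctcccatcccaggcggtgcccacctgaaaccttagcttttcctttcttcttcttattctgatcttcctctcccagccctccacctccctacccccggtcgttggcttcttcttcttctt
Il18rap, chr1:40515112-40515411, plus strand: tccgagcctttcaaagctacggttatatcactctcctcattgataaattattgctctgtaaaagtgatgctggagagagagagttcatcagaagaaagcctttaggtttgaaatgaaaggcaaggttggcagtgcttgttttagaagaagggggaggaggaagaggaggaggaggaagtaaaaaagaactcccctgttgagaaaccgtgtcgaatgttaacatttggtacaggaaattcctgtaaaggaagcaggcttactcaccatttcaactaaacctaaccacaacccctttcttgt
Stat4 (listed start 1), chr1:51986898-51987197, plus strand: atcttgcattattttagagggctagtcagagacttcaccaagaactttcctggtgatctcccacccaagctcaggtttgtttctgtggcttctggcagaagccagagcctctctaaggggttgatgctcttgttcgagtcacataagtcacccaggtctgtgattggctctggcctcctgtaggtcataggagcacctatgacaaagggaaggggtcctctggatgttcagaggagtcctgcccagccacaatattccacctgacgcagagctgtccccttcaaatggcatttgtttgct
Il12rb2 carries the motif once and Il18r1 start 3 carries it at 2 places, while the other printed windows have none. A match of letters is a description and shows no binding. The neighbours of these genes on the chromosomes come from the same RefSeq table: Il1rl2, Il1rl1, Il18r1 and Il18rap lie in that order on chromosome 1, Stat4 lies elsewhere on chromosome 1, Il12rb2 lies beside Il23r on chromosome 6, and Il12rb1 lies on chromosome 8.

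The sort and the arrays set the frame for every value below. Eomes was higher on all 3 Eomes+ arrays (10.38, 9.86 and 8.38 log2) than on all 3 Eomes- arrays (6.85, 6.89 and 5.42 log2) for its brighter probe set, and the T cell genes Cd3e and Cd8a were bright on all 6 arrays, with Cd8a between 11.95 and 13.05 log2 on Eomes+ arrays and between 12.56 and 13.55 log2 on Eomes- arrays. Signal of genes of other cell types differed between arrays of the same fraction, and most such genes had a higher mean in Eomes+ cells. This held for 22 of 23 tumour and fibroblast genes (median difference 0.29 log2) and 13 of 16 macrophage and monocyte genes (0.28 log2). Over all tested genes 47.4% had a higher mean in Eomes+ cells. Averaged over 23 tumour and fibroblast genes, the signal was 9.21, 11.02 and 11.79 log2 on Eomes+ arrays 1, 2 and 3, against 9.06, 10.14 and 11.87 log2 on Eomes- arrays 1, 2 and 3. For 16 macrophage and monocyte genes the mean signal stood at 8.69, 10.19 and 11.02 log2 on the Eomes+ arrays, against 8.42, 9.42 and 10.99 log2 on the Eomes- arrays. The mean of 10 T cell and CD8 genes was 12.26, 12.05 and 11.00 log2 on the Eomes+ arrays and 12.42, 12.38 and 11.18 log2 on the Eomes- arrays. Array 3 of each fraction thus had the lowest T cell signal and the highest tumour signal, and in such bulk samples fewer cells of a type and less RNA per cell cannot be told apart. 

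The defining NK cell gene Ncr1 lay below the 40th percentile on all 6 arrays. Without Eomes, the gene of the sort, the other 5 tested NK genes averaged 9.35 to 9.90 log2 on Eomes+ arrays and 9.42 to 9.85 log2 on Eomes- arrays, so the fractions overlapped in this mean. The genes did not move alike. With Eomes counted, 5 of 6 had a higher mean in Eomes+ cells, and the remaining 1 had a lower mean. Besides Eomes, 1 of the 6 was apart, lower in Eomes+ (background 4.66% of tested genes). Of 11 mast cell and basophil genes 6 passed the filter, 5 of them with a lower mean in Eomes+ cells. Cpa3 and Fcer1a were below the filter level on all 6 arrays and Tpsb2 on 3 of them, while Mcpt4 was below it on 5 and read 6.92 log2 on Eomes- replicate 3. The fractions were narrowly apart on the dendritic cell list (5 genes), at 7.8421 to 8.17 log2 on Eomes+ arrays and 7.65 to 7.8287 log2 on Eomes- arrays. Of its genes 3 had a higher mean in Eomes+ cells and 2 a lower one, and 1 was apart, higher in Eomes+ (background 3.05% of tested genes). They were also apart on the B and plasma cell list (4 genes), at 7.05 to 7.26 log2 on Eomes+ arrays and 6.68 to 6.89 log2 on Eomes- arrays. There 3 genes had a higher mean and 1 a lower one, and no single gene was apart. No background share was computed for list means. The list of CD4 and regulatory T cell genes, which holds activation genes such as Il2ra and Ctla4, had the median difference farthest from 0 of the marker lists, -0.77 log2, with 8 of 9 genes lower in mean in Eomes+ cells. Its mean was 8.71, 8.41 and 8.07 log2 on the Eomes+ arrays, against 9.33, 9.41 and 8.59 log2 on the Eomes- arrays, which overlap. Of its 9 genes 2 were apart, lower in Eomes+ (background 4.66% of tested genes). The part of these lists in the receptor values was not tested.

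**Figure D1:**
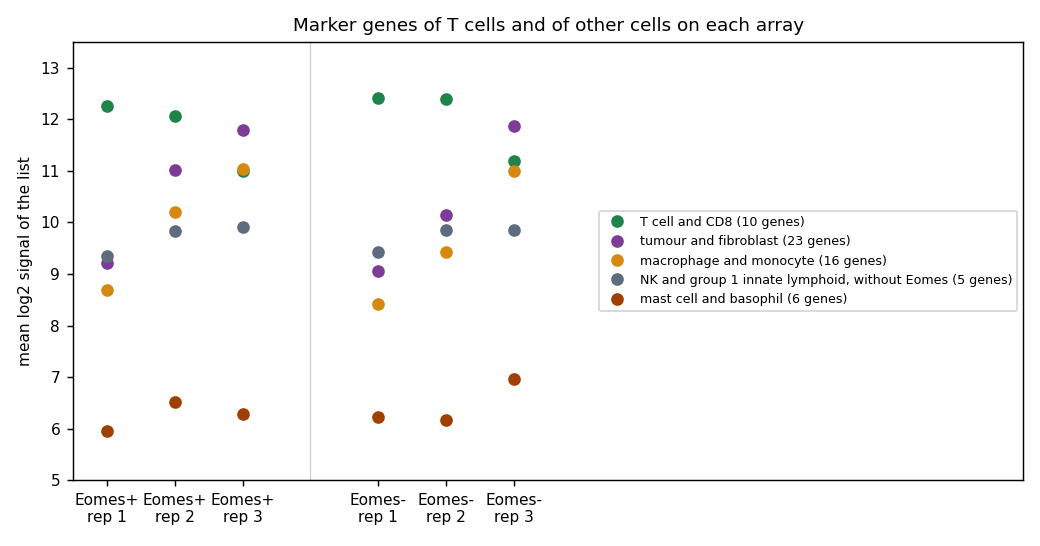
Mean log2 signal of marker gene lists on each array, Eomes+ arrays left and Eomes- arrays right, 1 point per array and list. T cell genes are lowest and tumour genes highest on array 3 of both fractions (11.00 and 11.79 log2 in Eomes+, 11.18 and 11.87 log2 in Eomes-).

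Across the 6 probe sets, means of the IL-12Rβ2 and IL-18Rβ genes were lower in Eomes+ cells, those of Stat4 and the IL-12Rβ1 gene were higher, and that of the IL-18Rα gene was nearly level. All 6 probe sets passed the filter on dim signals, lying above the 40th percentile of their array on every array. None passed limma's test over the 27766 probe sets tested (0 of 6 at an adjusted p under 0.05, where the background is 0.0%), and none had an unadjusted p under 0.05 (0 of 6, background 3.37%). In the whole table limma called 0 probe sets, with 936 at an unadjusted p under 0.05, and Eomes itself did not pass (log2 difference 3.15, SE 0.63; limma adjusted p = 1.00). The groups of arrays overlapped for each of the 6 probe sets (0 of 6 apart, background 8.06%, made up of 2.92% higher and 5.14% lower in Eomes+). Of the 6 differences 4 were negative and 2 positive, with a median of -0.37 log2, against -0.02 log2 over all tested probe sets.

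Il12rb2, the signalling chain whose expression decides whether a T cell responds to IL-12, had the widest gap between the means. Its signal was 10.84, 10.05 and 9.04 log2 on Eomes+ arrays 1, 2 and 3, against 11.23, 10.98 and 10.22 log2 on Eomes- arrays 1, 2 and 3. The highest Eomes+ array lay above the lowest Eomes- array, so the groups overlapped, although the other Eomes+ arrays lay below every Eomes- array. The means were 9.98 ± 0.90 log2 in Eomes+ cells and 10.81 ± 0.53 log2 in Eomes- cells (SD, n = 3 each). The log2 difference was -0.83 (SE 0.49; 95% interval -1.99 to 0.33; limma adjusted p = 1.00, unadjusted p = 0.134), which as a fold is 1.78 times lower in Eomes+ cells. It was negative under every alternative run that could move it, from -1.26 log2 without Eomes+ replicate 1 to -0.36 log2 without Eomes+ replicate 3.

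Il12rb1, the chain that holds TYK2 and also serves the IL-23 receptor, was the steadiest of the set. It read 9.58, 9.35 and 9.46 log2 on the Eomes+ arrays, against 9.39, 9.25 and 9.01 log2 on the Eomes- arrays. All 6 values lay within 0.56 log2, while the other 5 probe sets spanned 1.55 to 2.50 log2 over the same arrays. The mean was 9.46 ± 0.11 log2 in Eomes+ cells and 9.22 ± 0.19 log2 in Eomes- cells (SD, n = 3 each), a difference of 0.24 log2 (SE 0.21; 95% interval -0.26 to 0.74; limma adjusted p = 1.00, unadjusted p = 0.285). Without Eomes- replicate 3 the difference was 0.14 log2. On array 3 of the Eomes+ fraction, where T cell genes were low and tumour and macrophage genes high, it lay between the values of the other Eomes+ arrays.

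Il18r1, which encodes the chain that binds IL-18, read 11.97, 11.63 and 10.99 log2 on the Eomes+ arrays and 12.07, 12.27 and 10.72 log2 on the Eomes- arrays. Neither fraction was set apart, and array 3 was the lowest in each. The means were 11.53 ± 0.50 log2 in Eomes+ cells and 11.68 ± 0.84 log2 in Eomes- cells (SD, n = 3 each), a difference of -0.15 log2 (SE 0.45; 95% interval -1.22 to 0.92; limma adjusted p = 1.00, unadjusted p = 0.746). The sign of so small a difference turned under 8 alternatives, and the interval does not exclude a difference of 1 log2 in the negative direction.

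Il18rap, whose product is the accessory chain needed for the IL-18 signal, was read by 2 probe sets, which share a gene and are not independent measurements. The brighter one read 10.10, 9.77 and 7.87 log2 on the Eomes+ arrays and 10.36, 10.38 and 8.76 log2 on the Eomes- arrays. The other read 9.77, 8.99 and 8.52 log2 on the Eomes+ arrays and 10.06, 10.33 and 8.72 log2 on the Eomes- arrays. In both, the Eomes+ and Eomes- arrays of number 3 were low and the groups overlapped. The differences were -0.59 log2 (SE 0.70; 95% interval -2.25 to 1.08; unadjusted p = 0.43) for the brighter and -0.61 log2 (SE 0.51; 95% interval -1.82 to 0.60; unadjusted p = 0.269) for the other, with a limma adjusted p of 1.00 for each. Without Eomes+ replicate 3 the brighter probe set turned to 0.10 log2, and without Eomes- replicate 3 it was -1.12 log2. The dimmer one was negative under every alternative run that could move it, but 1 array moved it widely. It was -0.30 log2 without Eomes- replicate 2, -0.33 log2 without Eomes+ replicate 3, -0.95 log2 without Eomes+ replicate 1 and -1.10 log2 without Eomes- replicate 3.

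For Stat4, the transcription factor downstream of the IL-12 receptor, the difference between the means had the opposite sign from that of Il12rb2. It read 11.57, 11.00 and 9.66 log2 on the Eomes+ arrays, against 10.85, 10.80 and 9.18 log2 on the Eomes- arrays. Arrays 1 and 2 of the Eomes+ fraction were above all Eomes- arrays, and the third was below 2 of them. The means were 10.74 ± 0.98 log2 in Eomes+ cells and 10.28 ± 0.95 log2 in Eomes- cells (SD, n = 3 each), a difference of 0.46 log2 (SE 0.62; 95% interval -1.02 to 1.95; limma adjusted p = 1.00, unadjusted p = 0.482). Without Eomes- replicate 3, the lowest array, the difference turned to -0.08 log2, and without Eomes+ replicate 3 it was 1.01 log2.

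**Figure D2:**
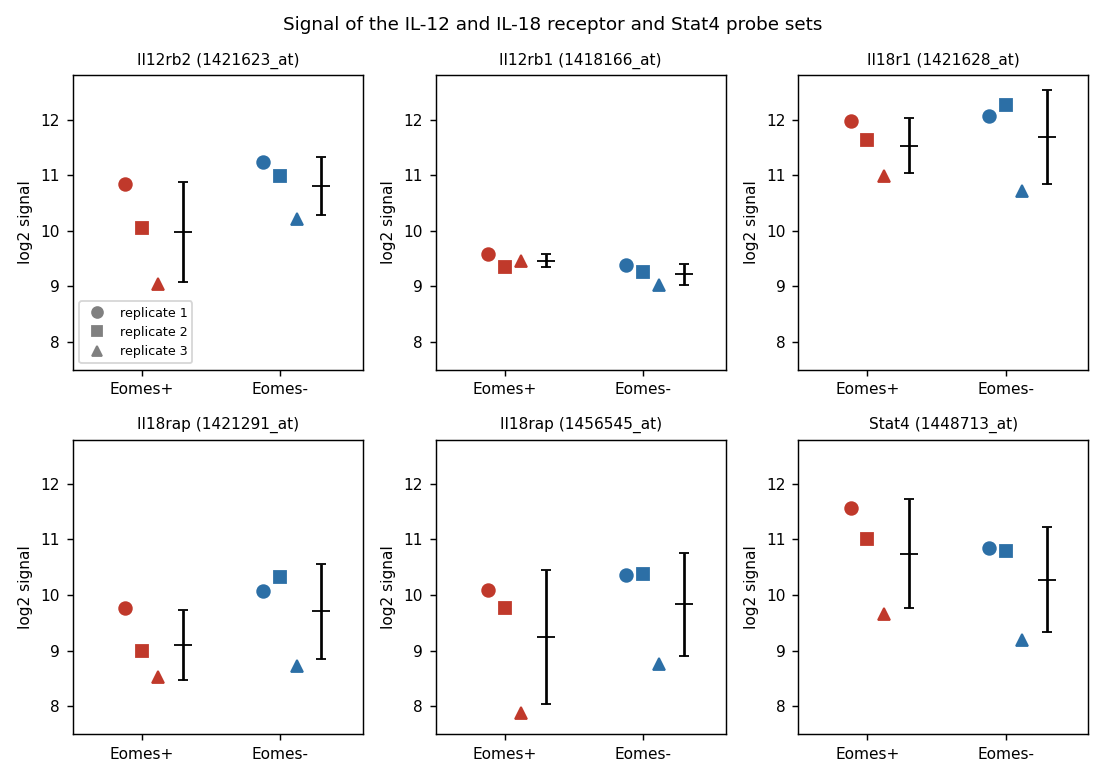
Log2 signal of each probe set on each array, Eomes+ left and Eomes- right, with marker shapes for replicate numbers and mean ± SD beside the points (n = 3 each). Replicate 3 is the lowest array of both fractions in every panel other than that of Il12rb1, Il12rb1 varies least (0.56 log2 over 6 arrays), and the groups overlap in every panel.

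Because array 3 of each fraction was low for the T cell genes as well as for Il12rb2, Il18r1, Il18rap and Stat4, the values were also set against the mean of the 10 T cell and CD8 genes of the same array, a scaling chosen after seeing the data. This scaling moved the median difference of all tested probe sets by 0.22 log2, to 0.20, so each scaled difference is to be read against that median. The 10 genes are themselves not neutral between the fractions, since 9 of 10 had a lower mean in Eomes+ cells, with a median difference of -0.14 log2. After scaling, 3 of the 6 probe sets no longer overlapped between the fractions, against 3.84% of all tested probe sets: 1 was higher in Eomes+ (background 2.8%) and 2 were lower (background 1.03%). Scaled Stat4 was 11.19, 10.83 and 10.54 log2 on the Eomes+ arrays and 10.32, 10.30 and 9.88 log2 on the Eomes- arrays, with 0.22 log2 between the groups. Scaled Il12rb2 was 10.46, 9.88 and 9.93 log2 on the Eomes+ arrays and 10.70, 10.47 and 10.92 log2 on the Eomes- arrays, so that the groups were apart by 0.0093 log2 only. The dimmer Il18rap probe set was apart by 0.018 log2, also a narrow gap, and its brighter partner overlapped.

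The scaled differences were 0.69 log2 for Stat4 (SE 0.43; 95% interval -0.28 to 1.66; unadjusted p = 0.144) and -0.61 log2 for Il12rb2 (SE 0.43; 95% interval -1.57 to 0.36; unadjusted p = 0.191), and limma gave an adjusted p of 1.00 for each of the 6 probe sets. Scaled Il18r1 lay between 11.46 and 11.88 log2 on the Eomes+ arrays and between 11.42 and 11.77 log2 on the Eomes- arrays, a difference of 0.07 log2 (SE 0.41), below the median of all probe sets. For Il12rb1 the scaled difference was 0.47 log2 (SE 0.53), and the scaling widened the spread within each fraction, to an SD of 0.67 log2 in Eomes+ cells and 0.53 log2 in Eomes- cells (n = 3 each).

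**Figure D3:**
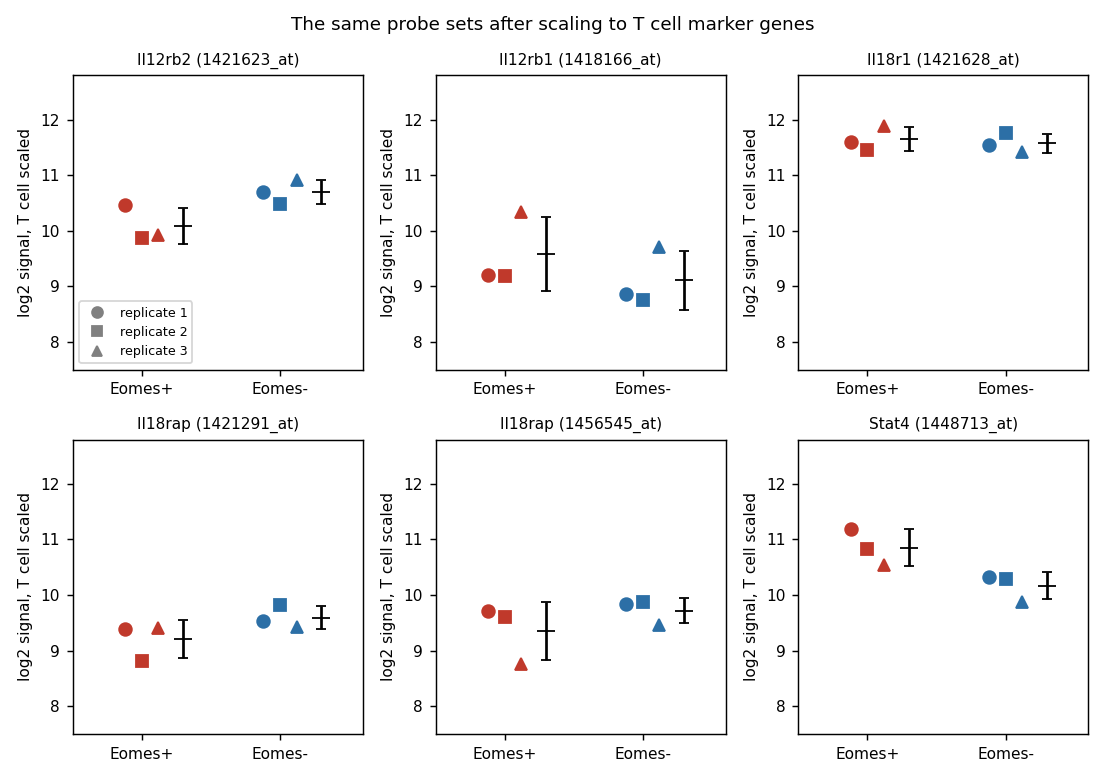
The same 6 probe sets after scaling each array to its T cell and CD8 marker genes (log2 scale, mean ± SD, n = 3 each), Eomes+ left and Eomes- right. Stat4 is higher on all 3 Eomes+ arrays (10.54 to 11.19 log2) than on all 3 Eomes- arrays (9.88 to 10.32 log2), and Il18r1 is nearly level.

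**Figure D4:**
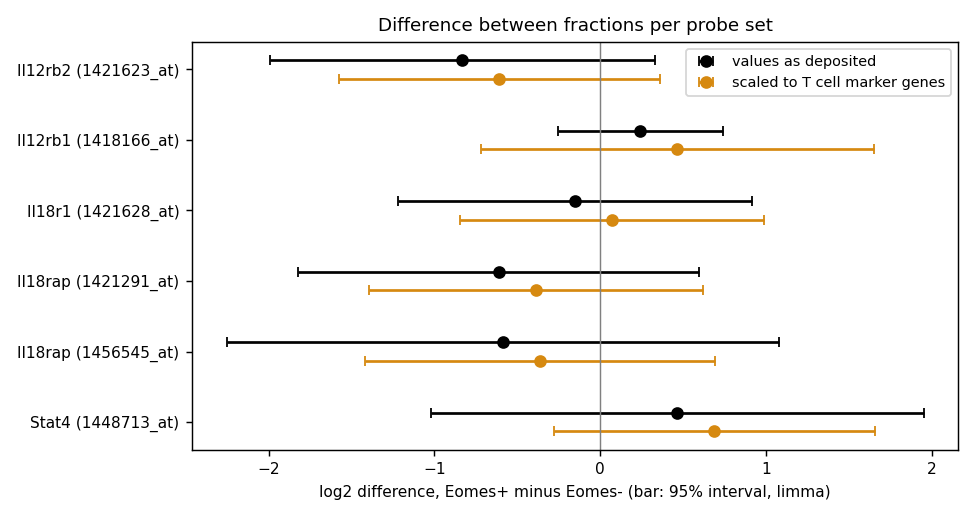
Log2 difference of each probe set, Eomes+ minus Eomes-, with 95% intervals from limma, for the deposited values and for the values scaled to T cell genes. Every interval crosses 0, from -0.83 log2 for Il12rb2 to 0.46 log2 for Stat4 in the deposited values.

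A shift that both genes of a pair share on an array cancels in their ratio, and ratios were compared for all 10 pairs of the 5 genes, each by its brightest probe set, in an analysis chosen after seeing the data. The level of such a ratio has no meaning of its own because the probes differ, and only its change between fractions was read. In 2 of the 10 pairs the fractions did not overlap, against 7.94% of all pairs of tested genes. The log2 ratio of Stat4 to Il12rb2 was 0.73, 0.95 and 0.61 on the Eomes+ arrays, against -0.38, -0.18 and -1.04 on the Eomes- arrays. It was higher on every Eomes+ array by at least 0.79 log2, with means of 0.77 ± 0.17 in Eomes+ cells and -0.53 ± 0.45 in Eomes- cells (SD, n = 3 each) and a difference of 1.30 log2 (two-sided exact permutation p = 0.1, and 3 arrays against 3 can reach no lower; Benjamini-Hochberg adjusted over 10 pairs, p = 0.4).

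The log2 ratio of Stat4 to Il18rap was 1.47, 1.23 and 1.78 on the Eomes+ arrays, against 0.49, 0.42 and 0.43 on the Eomes- arrays. All Eomes+ arrays were again above all Eomes- arrays, by a difference of 1.05 log2 (exact permutation p = 0.1; adjusted p = 0.4). Over all alternatives the difference in the Stat4 to Il12rb2 ratio lay between 1.04 and 1.47 log2, and that in the Stat4 to Il18rap ratio between 0.90 and 1.18 log2. Both ratios therefore kept their sign without any single array, although Stat4 alone did not. Keeping the sign is not particular to these ratios, since of all pairs compared only Stat4 to Il12rb1 turned (in 2 of 26 alternatives). The replicate block, the filters, median centring, the variance models and T cell scaling leave a ratio unchanged by construction. They are therefore no check on it, although they count among the 26. The chains of the same receptor were not separated: the Il12rb1 to Il12rb2 ratio differed by 1.07 log2 with overlapping fractions (exact permutation p = 0.2; adjusted p = 0.4), and the Il18r1 to Il18rap ratio by 0.44 log2 (exact permutation p = 0.6; adjusted p = 0.6). In the remaining 6 pairs the fractions overlapped too.

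The genes whose pattern over the 6 arrays was most like that of each member were found by Pearson correlation among 5997 genes whose signal spanned at least 1 log2. The r values are descriptions over 6 arrays that share differing amounts of T cell and tumour RNA. For Il18rap the closest was Cd3g, a chain of the T cell receptor complex and one of the genes of the T cell scaling (r = 0.997), which read 12.87, 12.63 and 11.43 log2 on the Eomes+ arrays and 13.16, 13.12 and 12.08 log2 on the Eomes- arrays, and then Zdhhc2 and the thromboxane receptor gene Tbxa2r. For Il18r1 it was Ptpn6, which encodes the phosphatase SHP-1 (r = 0.998), followed by B3gnt2 and Atp8b4. For Stat4 the list held Pglyrp2 (r = 0.995), Sfi1 and Gimap4, a GTPase gene of lymphocytes. For Il12rb2 it held Slc10a3 (r = 0.996), Tent5a and Sinhcaf, and for Il12rb1 Gm10033 (r = 0.991), Abhd17b and Rwdd2a.

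Of the other genes of the pathway, 67 in 8 lists, 52 were tested by their brightest probe set. The annotation used here lists no single-gene probe set for 6 of them (Il23r is one), and 9 lay below the filter, among them the IL-12 and IL-23 subunit genes Il12a and Il23a, Il33, which encodes the ligand of ST2, and the type 2 cytokine genes Il4 and Il5. Over all genes 0 of the 52 passed limma's test (background 0.0%), and 2 had an unadjusted p under 0.05, 1 in each direction (background 3.13% of 12571 genes). In 24 the mean was higher in Eomes+ cells and in 28 it was lower, with a median of -0.06 log2, against -0.02 log2 over all tested genes, of which 47.4% had a higher and 52.6% a lower mean.

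Ligand genes were few: 4 of 9 were tested, and none came near the threshold. Il12b, the IL-12 p40 subunit, differed by 0.04 log2 (SE 0.25), Il18 by -0.38 log2 (SE 0.94) and Ebi3, a subunit of IL-27 and IL-35, by -0.44 log2 (SE 0.42; unadjusted p = 0.325). Il18 lay below the filter level on 1 array of each fraction. Il1b, a macrophage product, was highest on array 3 of both fractions, at 11.02 log2 in Eomes+ and 11.44 log2 in Eomes-.

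Among decoys and ligand processing, 5 of 5 genes were tested, 3 with a lower mean in Eomes+ cells. Il1r2, the decoy receptor for IL-1 that lies in the same chromosome 1 cluster as Il18r1, read 7.08, 8.04 and 7.45 log2 on the Eomes+ arrays and 8.54, 8.57 and 7.90 log2 on the Eomes- arrays, a difference of -0.82 log2 (SE 0.35; limma unadjusted p = 0.0535). Casp1, the protease that activates IL-18, differed by -0.76 log2 (SE 0.41; unadjusted p = 0.108) and Sigirr, an inhibitory receptor of the IL-1 and IL-18 pathways, by -0.54 log2 (SE 0.29; unadjusted p = 0.111). Il18bp, the soluble inhibitor of IL-18, differed by 0.03 log2 (SE 0.54).

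Of partner and related receptor chains, 5 of 6 were tested and 4 had a higher mean in Eomes+ cells. Il6st, the gp130 chain shared by the IL-6 and IL-27 receptors, differed by 0.61 log2 (SE 0.40; unadjusted p = 0.176), Il1rap by 0.38 log2 (SE 0.47) and Il27ra by 0.30 log2 (SE 0.47). After T cell scaling 1 of the 5 genes was apart, Il27ra, higher in Eomes+ (background 2.46% of tested genes). Il1r1, a further member of the chromosome 1 cluster, read 5.36, 7.86 and 8.78 log2 on the Eomes+ arrays and 5.49, 6.53 and 8.66 log2 on the Eomes- arrays. It was thus highest on array 3 of each fraction, where tumour and macrophage genes were highest and Il18r1 was lowest.

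The kinases and adaptors had small differences: 10 of 12 were tested, with 7 higher and 3 lower means and a median of 0.08 log2. The IL-12 receptor kinase genes Tyk2 and Jak2 differed by -0.37 log2 (SE 0.38) and 0.09 log2 (SE 0.23). Myd88, the adaptor of the IL-18 receptor, differed by 0.07 log2 (SE 0.36), and the IRAK kinase genes Irak1 and Irak2 by 0.19 log2 (SE 0.26) and 0.21 log2 (SE 0.31). Of 5 other STAT genes tested, 1 had a higher mean and 4 a lower one. Stat3, the main STAT of IL-6 and IL-27 signalling, differed by -0.45 log2 (SE 0.31; unadjusted p = 0.197), Stat5a by -0.21 log2 (SE 0.41) and Stat6 by -0.04 log2 (SE 0.28).

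Of 11 tested genes that IL-12, IL-18 or STAT4 induce, 8 had lower means in Eomes+ cells, and the median difference was -0.42 log2. Ifng, the signature product of the pathway, read 11.85, 11.79 and 9.87 log2 on the Eomes+ arrays, against 12.67, 12.60 and 11.29 log2 on the Eomes- arrays, a difference of -1.02 log2 (SE 0.62; limma unadjusted p = 0.144, adjusted p = 1.00). The chemokine gene Ccl4 read 9.92, 9.61 and 8.88 log2 on the Eomes+ arrays and 10.58, 11.21 and 9.75 log2 on the Eomes- arrays, a difference of -1.04 log2 (SE 0.43; unadjusted p = 0.0494, adjusted p = 1.00). In both genes the groups overlapped in the deposited values. After T cell scaling 3 of the 11 genes were apart, all lower in Eomes+ (Ccl4, Ifng and Il2ra, which encodes an IL-2 receptor chain), and 8 overlapped. Over the 52 pathway genes 1 was then apart higher and 4 lower, against 2.46% higher and 1.02% lower of all tested genes (3.48% in either direction). Ccl3 differed by -0.60 log2 (SE 0.38; unadjusted p = 0.163). On the other side, Irf1, a target of IL-12 and of interferon-γ, differed by 0.42 log2 (SE 0.29).

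Feedback regulators held the widest difference among the pathway genes. Socs3, which restrains signalling through gp130 and STAT3, read 12.22, 11.73 and 11.99 log2 on the Eomes+ arrays, against 10.22, 9.93 and 11.61 log2 on the Eomes- arrays. All Eomes+ arrays were above all Eomes- arrays, by 1.39 log2 between the means (SE 0.43; limma unadjusted p = 0.0151, adjusted p = 1.00). Ptpn2, a phosphatase that acts on JAK kinases, was the other gene of the 8 tested whose groups did not overlap (2 of 8, both higher in Eomes+; background 7.71% of tested genes, made up of 3.05% higher and 4.66% lower), with a difference of 0.25 log2 (SE 0.15; unadjusted p = 0.147). In the deposited values no gene of the other pathway lists was apart, so the count over all lists was 2 of 52, against the same 7.71%. After T cell scaling the groups overlapped for both genes. Another of the 8, Cish (-0.71 log2, SE 0.515 in the deposited values), was then apart, lower in Eomes+ (background 1.02% of tested genes). Socs2 differed by -0.83 log2 (SE 0.45; unadjusted p = 0.108). As a measure of RNA quality, the log2 ratio of the 3' to the 5' Gapdh control probe set averaged 1.74 ± 0.17 in Eomes+ and 1.24 ± 0.26 in Eomes- (SD, n = 3 each; exact permutation p = 0.1, two-sided). It was higher on every Eomes+ array (1.55 to 1.88) than on every Eomes- array (1.07 to 1.54), and 3 arrays against 3 can reach no lower p. For Actb the ratio averaged 0.13 ± 0.04 and 0.05 ± 0.06 (exact permutation p = 0.2). The part of RNA quality in any of these values was not tested. Of 8 type 2 genes linked to ST2, 4 were tested and 3 (Il4, Il5 and Il9) lay below the filter. Il4ra differed by 0.39 log2 (SE 0.39), Maf by 0.56 log2 (SE 0.68) and Gata3, the factor that drives ST2 in type 2 cells, by -0.59 log2 (SE 0.75).

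**Figure D5:**
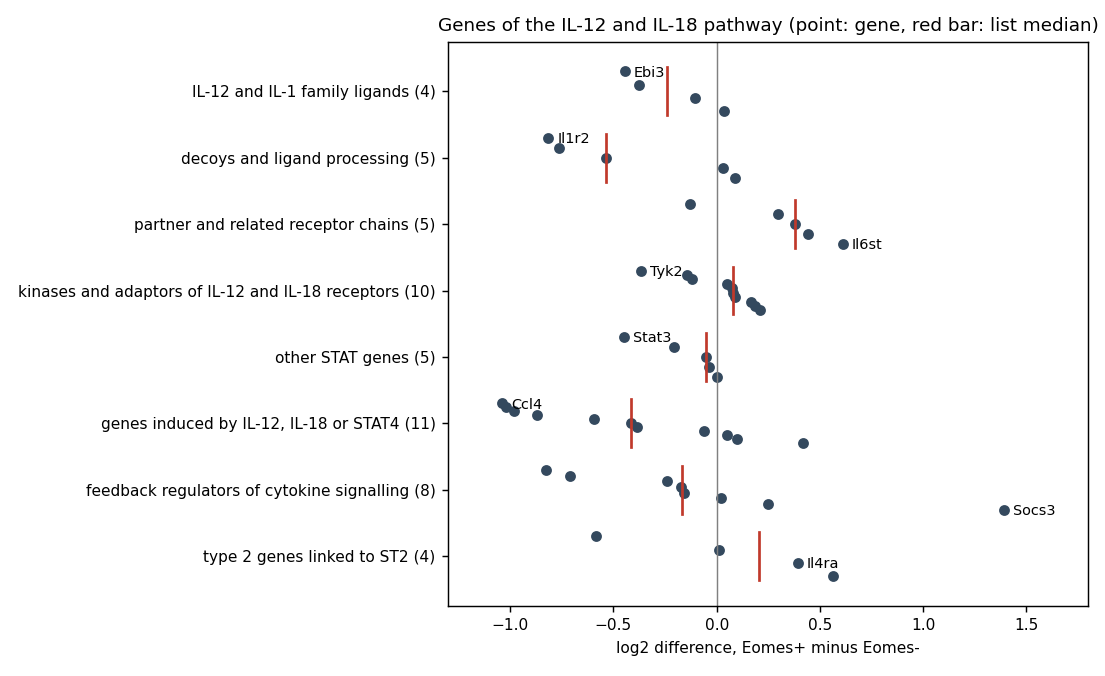
Log2 difference, Eomes+ minus Eomes-, of each tested gene of the 8 pathway lists, 1 point per gene, with the list median in red and the gene of smallest p named. Socs3 lies farthest to the right (1.39 log2), and most genes induced by IL-12, IL-18 or STAT4 lie left of 0 (median -0.42 log2).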

How the data were processed

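RNA of sorted CD8 T cells was hybridised to microarrays. The authors deposited log2 signals per probe set; the scale was read from the values. The submitters' processing notes name MAS5 and Transcriptome Analysis Console, with neither a version nor a role, so how signals were summarised is unknown here. The arrays have nearly equal medians (6.35 to 6.42 log2), so a shift common to most genes cannot be seen in them.

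The 64 control probe sets were dropped. In the platform annotation 34945 of the others have 1 gene symbol, 932 several and 9160 none listed; only probe sets with 1 symbol are named, under current RefSeq symbols. The filter kept 27766 probe sets that exceeded the 40th percentile of the array in 3 or more of 6 arrays. These were tested per probe set with limma 3.58.1 in R 4.3.3 (lmFit, eBayes with an intensity trend, two-sided, Benjamini-Hochberg over all, threshold 0.05). The code was also run on simulated data. Their noise was smaller than that of these arrays and independent between arrays, so the run does not show how the test performs here. Pathway genes are given by their brightest probe set (12571 genes). Exact permutation tests used scipy 1.17.1. The number of arrays limits the precision.

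Named were all probe sets of the 6 genes, Eomes, the 3 genes of smallest p per pathway list and the 3 genes most alike in pattern. Il1b, Il18bp, Il1r1, Jak2, Myd88, Irf1, Il2ra and Cish were added after their values were seen. Members and lists were chosen with earlier results of these data known. Alternatives were a replicate block, filters, scalings, pseudocounts of 16 and 64, variance models, array weights, a marker covariate and arrays left out; T cell scaling and ratios were added after seeing the data.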

Additional observations from a re-analysis of the deposited data

How the results depend on the processing

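Over 26 alternatives the 6 probe sets gave 155 recomputed differences, of which 145 kept direction and 10 turned. The replicate block, the filters, the choice of the brightest probe set and the variance models leave a difference unchanged by construction. They change only its SE or the probe sets tested, so the count of 145 overstates how often the direction was checked. None passed the threshold (lowest limma adjusted p = 0.0956, for the dimmer Il18rap probe set with array weights, at -1.20 log2). Array weights put Il12rb1 at 0.14 log2. Il18r1 turned to 0.002 log2 with the marker covariate, 0.0905 without both arrays of replicate 2 (with or without the replicate block) and 0.0725 under T cell scaling (with or without the block). With single arrays left out, it ranged from -0.6341 (dropping Eomes- replicate 3) to 0.1399 (dropping Eomes- replicate 2), and was also above 0 when Eomes+ replicate 3 (0.1185) or Eomes- replicate 1 (0.0401) was dropped. On the same basis the brighter Il18rap probe set ranged from -1.1242 (dropping Eomes- replicate 3) to 0.1002 (dropping Eomes+ replicate 3), the dimmer one from -1.1018 (dropping Eomes- replicate 3) to -0.3011 (dropping Eomes- replicate 2), Il12rb1 from 0.1413 (dropping Eomes- replicate 3) to 0.3284 (dropping Eomes- replicate 1), and Stat4 from -0.0822 (dropping Eomes- replicate 3) to 1.0079 (dropping Eomes+ replicate 3). The cause was not tested. The median over the 6 probe sets lay between -0.87 and 0.11 log2 with those arrays dropped. Over the whole table limma called 74 probe sets with array weights, 8 with T cell scaling and the replicate block, 1 with the block and without both arrays of replicate 2, and 0 in every other setting run.

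The labels do not tie replicate numbers to an experiment. For arrays of number 1, 2 and 3, the deviations from the group means had correlations of 0.595, 0.0989 and 0.628 over all probe sets. The rule for pairing asks for more than 0.1 in every pair, which number 2 narrowly missed, so the numbers were not taken as pairs. By signal, each Eomes+ array correlated best with the Eomes- array of its number (r = 0.976, 0.9699 and 0.9725). Eomes- arrays 1 and 2, however, correlated best with each other (0.9814). Pairing is thus not settled. If the numbers are pairs, the SEs without the block include variation between replicates. All probe sets other than that of Il18r1 kept 1 sign in the 3 same-numbered comparisons (background 31.3%). With the replicate block, limma called none of the 6 probe sets and 0 of 27766, while 3 of the 6 and 9.9% of all had an unadjusted p under 0.05. These 3 were Il12rb2, the brighter Il18rap probe set and Stat4. The block left Il12rb2 at -0.83 log2 (SE 0.18; limma adjusted p = 0.249). It left the brighter Il18rap probe set at -0.59 (SE 0.19; limma adjusted p = 0.393) and Stat4 at 0.46 (SE 0.15; limma adjusted p = 0.391). No pathway gene passed with it either (0 of 52). Genes close to background, such as Il18, are measured least well.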
